A study of Mus musculus with 12 samples.

Results

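The transcripts described here encode proteins of pre-mRNA splicing and related RNA-binding proteins, measured on arrays of primary mixed glia that did or did not receive interleukin-1β. Members were all genes whose single probe symbol begins with Srsf, Snrp, Hnrnp, Prpf, Sf3, Ddx, Dhx or Rbm, a choice by name that used no measured value. The rule found 58 genes on 81 of the 8734 probes. A probe complete on all 10 usable arrays existed for 43 of these genes, which were tested together with every other complete probe, 5713 in all, and the remaining 15 genes had gaps and are described separately. Each tested gene is represented by its brightest complete probe.

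The arrays form 4 groups: IL-1R1-/- glia given 10 ng/ml rrIL-1β, IL-1R1-/- glia given vehicle, wild-type glia given 10 ng/ml rrIL-1β, and wild-type glia given vehicle, each treated for 4 hours. IL-1R1 is the receptor through which interleukin-1 signals. The cells were mixed cultures kept for 10 to 12 days after isolation, and the labels give treatments as paired within 3 independent biological replicates of each genotype. Their RNA was turned into radio-labelled cDNA and hybridised to 1 array per sample. The third IL-1R1-/- pair was not used, since both of its columns repeated other columns at a constant ratio at 5959 of 5982 and 6531 of 6584 shared probes, so 2 IL-1R1-/- pairs and 3 wild-type pairs remained.

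In splicing, small nuclear ribonucleoproteins (snRNPs) assemble with the PRPF and SF3 proteins into the spliceosome, which removes introns from new transcripts. SR proteins mostly promote the use of nearby exons, whereas hnRNPs coat pre-mRNA and often oppose exon use. DEAD-box and DEAH-box helicases remodel RNA and RNA-protein complexes, in the spliceosome and also in ribosome production. In glia, regulated splicing shapes myelin protein isoforms, and HNRNPA2B1 is known for carrying myelin basic protein mRNA in oligodendrocytes. Interleukin-1β signals through IL-1R1 to NF-κB and induces inflammatory transcripts.

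The name rule gathers more than splicing factors. It brought in 10 DEAD-box genes, among them the ribosome biogenesis helicases Ddx10, Ddx21, Ddx24, Ddx51 and Ddx56 and the interferon-inducible Ddx60, and 14 RNA-binding motif genes, which include Rbms1 and Rbms2. The 10 hnRNPs, 8 PRPF genes, 5 DEAH-box genes, 4 snRNP genes, 4 SF3 genes and 3 SR genes complete the set. Of these families 9 hnRNPs, 8 DEAD-box, 11 RNA-binding motif, 6 PRPF, 3 snRNP, 3 SF3, 2 SR and 1 DEAH-box gene could be tested.

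Before normalization, medians of the arrays used lay between 32303 and 60399 intensity units in IL-1R1-/- glia and between 4649 and 24600 in wild-type glia. The genotypes also lay in separate cultures, so genotype, array brightness and culture cannot be told apart. Precision is limited by how few arrays there are. The Il1r1 probe ran from log2 13.74 to 15.03 over the arrays without separating the genotypes. Of the cell type markers, 4 of 12 astrocyte, 5 of 16 microglia and macrophage, 3 of 11 oligodendrocyte, 2 of 10 neuronal, 5 of 10 endothelial and mural, and 2 of 8 fibroblast genes were measured. Only probes with a value on every array used were counted, so a measured set does not show that its cell type was present. Gfap and Aqp4, defining astrocyte markers, were not among the tested probes. In bulk RNA, fewer cells of a type and less RNA per cell cannot be told apart.

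The first comparison asks which members responded to IL-1β where its receptor was present. None of the 43 members passed an adjusted p of 0.05 in wild-type glia (limma, Benjamini-Hochberg over all 5713 probes), while 6.18% of all probes did. At an unadjusted p under 0.05 there were 2 members, Hnrnpul1 and Rbm25, against 21.1% of all probes. The members' log2 changes ran from -0.44 for Hnrnpul1 to 0.39 for Rbm7, with a median of 0.003, and 22 lay above and 21 below 0. The median over all probes was -0.04. The 95% interval stayed within a 2-fold change in either direction for 43 of 43 members, compared with 91.2% of all probes, and within a 1.5-fold change for 22 members, compared with 42.2% of all probes. These intervals cover only the spread between cultures for 1 probe per gene under 1 processing. Other processing could give a value outside them, as for Hnrnpa2b1 below. They neither bound a gene's response nor show that a member was unaltered.

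Wild-type changes depended on where a probe stood in the array's probe order, with a correlation of 0.64 between the changes of neighbouring probes. The count of members that passed in each comparison was therefore repeated with this position trend removed, which left a correlation of 0.09. Single-gene values are given in both versions for some genes only, and are otherwise as normalized unless stated. After removal 0 of 43 members passed in wild-type glia, against 0.403% of all probes, and 3 members, Hnrnpa2b1, Hnrnpl and Rbms1, had an unadjusted p under 0.05, against 11.2% of all probes. The changes then ran from -0.40 for Hnrnpa2b1 to 0.29 for Rbms1. The interval lay within a 2-fold change for 43 members and within a 1.5-fold change for 41, where the shares of all probes were 98.9% and 83.9%. Trend removal moved the members' wild-type change by a median of 0.14 on the log2 scale and turned the sign of 13 of them, so a direction given below for one version holds for that version alone unless both are printed.

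**Figure D1:**
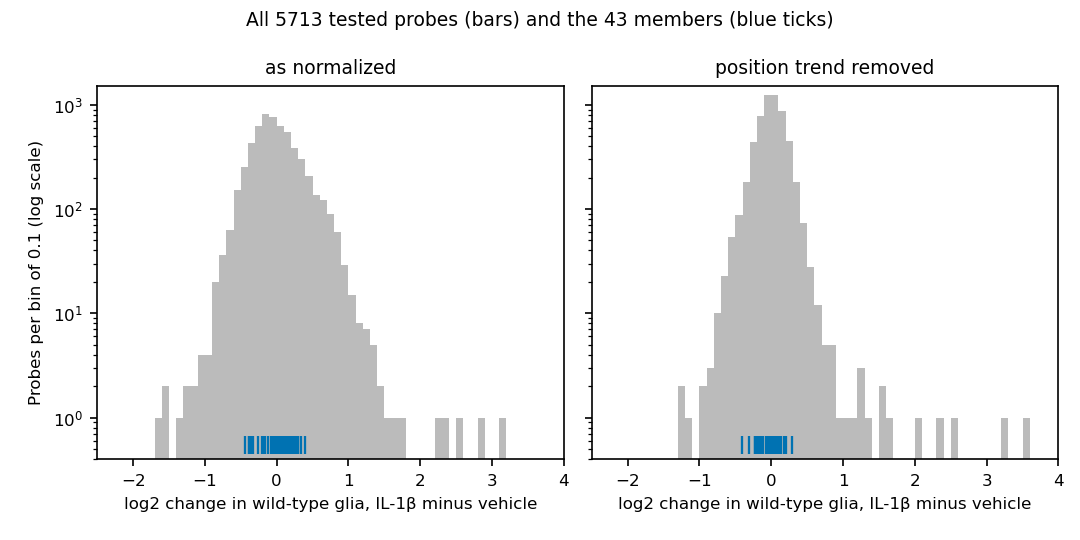
Number of probes (log-scaled vertical axis) per bin of 0.1 in the log2 change of wild-type glia, IL-1β minus vehicle, for all 5713 tested probes (grey bars) with the 43 members as blue ticks, as normalized on the left and with the position trend removed on the right. The members lay between -0.44 and 0.39 on the left and between -0.40 and 0.29 on the right, inside the range of the other probes.

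Induced genes outside the set are given as a scale for the members' values. Lcn2, an iron-siderophore-binding protein of inflammation, rose by log2 2.90 in wild-type glia (SE 0.21, adjusted p = 1.1e-05 in limma). Steap4, a metalloreductase, rose by log2 2.31 (SE 0.20), and the chemokine gene Ccl12 rose by log2 2.51 (SE 0.24). Of 8 measured genes of a list of known interleukin-1 targets, 7 rose and their median change was 2.05, compared with -0.04 over all probes. After trend removal 6 rose, at a median of 1.84. The shares of all probes that passed were 6.18% and 0.403%. This list, too, was chosen with earlier results of these data known, so its count is a description and supports nothing about the members.

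The members' promoters were compared with that of Steap4 in RefSeq sequence (GRCm38.p6) of 300 bases around a gene's start. The table held a promoter for 54 of the 58 members, and the first one listed per gene was used. They are shown because the members' median GC and CpG content, which the name rule did not use, lay above that of all promoters. Median GC content was 59.0% over the 54 members and 52.7% over all 27025 promoters, and the median number of CpG dinucleotides was 24 and 7. All promoters here include those of genes without a probe on the array, and the promoters of the tested genes were not compared. Not every member had such a start region, since Rbm25 had 35.0% GC and 0 CpG, and Rbms2 had 41.0% and 2. The letters GGGCGG, on either strand, occurred in 61.1% of the members and 35.9% of all promoters, and CCGGAA in 35.2% and 15.2%. TATAAA occurred in 14.8% and 14.2%. The NF-κB consensus motif occurred in 3 of 54 members, Dhx8, Hnrnpr and Prpf6, which is 5.56%, and in 8.18% of all promoters. Hnrnpul1 (chr7:25754710-25755009, minus strand) had the lowest wild-type change as normalized, Hnrnpa2b1 (chr6:51469845-51470144, minus strand) the lowest with the trend removed, and Steap4 (chr5:7960222-7960521, plus strand) is shown as an induced gene. Capitals mark matches to any of these motifs on either strand, which overlap in part in Steap4. A match is a description of letters, not a binding site.
Hnrnpul1: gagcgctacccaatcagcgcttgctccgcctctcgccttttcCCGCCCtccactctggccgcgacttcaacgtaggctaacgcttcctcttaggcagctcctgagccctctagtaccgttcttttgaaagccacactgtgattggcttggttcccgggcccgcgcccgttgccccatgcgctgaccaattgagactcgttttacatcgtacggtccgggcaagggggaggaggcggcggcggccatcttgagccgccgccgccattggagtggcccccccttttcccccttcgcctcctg
Hnrnpa2b1: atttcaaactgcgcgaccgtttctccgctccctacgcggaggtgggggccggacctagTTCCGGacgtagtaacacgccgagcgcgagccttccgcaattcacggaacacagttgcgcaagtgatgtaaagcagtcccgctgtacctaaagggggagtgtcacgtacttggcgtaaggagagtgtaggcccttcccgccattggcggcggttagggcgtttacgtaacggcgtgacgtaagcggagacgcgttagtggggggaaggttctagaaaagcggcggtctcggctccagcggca
Steap4: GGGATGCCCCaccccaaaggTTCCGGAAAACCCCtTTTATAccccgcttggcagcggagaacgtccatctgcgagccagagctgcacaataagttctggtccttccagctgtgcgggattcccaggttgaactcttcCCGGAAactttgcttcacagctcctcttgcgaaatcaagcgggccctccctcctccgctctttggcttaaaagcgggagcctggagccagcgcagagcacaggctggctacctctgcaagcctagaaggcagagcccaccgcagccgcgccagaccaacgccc
The Hnrnpul1 stretch held 1 match to GGGCGG, read on the other strand, and none to the other motifs. The Hnrnpa2b1 stretch held 1 match to CCGGAA. The Steap4 stretch held 2 matches to the NF-κB consensus, 3 to CCGGAA and 1 to TATAAA.

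The hnRNPs held the lowest wild-type change, that of Hnrnpul1. In wild-type glia the 9 tested hnRNPs had a median log2 change of -0.03, with 4 above and 5 below 0. Once the trend was removed the median was -0.16 and 8 of 9 lay below 0, compared with a median of 0.002 over all probes, and none passed the test in either version.

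Hnrnpul1 encodes an hnRNP U-like protein that binds RNA and takes part in transcription and DNA repair. Its log2 intensities in wild-type glia were 16.54, 16.34 and 15.21 with IL-1β and 16.75, 16.68 and 15.97 with vehicle. The IL-1β array was the lower one in each of the 3 pairs, but the groups overlapped, since the third culture was dimmer than the others under both treatments. The fitted change was -0.44 (95% interval -0.83 to -0.04, adjusted p = 0.190 in limma), and -0.15 with the trend removed. Other probes of the gene gave -0.26 and 0.11.

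Hnrnph2 encodes an hnRNP of the H and F group, which binds runs of guanines. It read 15.33, 15.27 and 16.08 in wild-type IL-1β arrays and 16.07, 15.45 and 16.32 in wild-type vehicle arrays. IL-1β was lower in 3 of 3 pairs, with overlap between the groups (change -0.39, 95% interval -0.79 to 0.01, adjusted p = 0.250). As normalized the second probe of Hnrnph2 gave 0.01 in wild-type glia, so in that version the probes did not share the size of the change. With the trend removed the first and second probes gave -0.23 and -0.31. The first probe's wild-type pair differences were then -0.25, 0.16 and -0.60.

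Hnrnpl, which binds CA-rich RNA and regulates exon choice, had wild-type values of 14.62, 14.09 and 15.39 with IL-1β and 14.99, 14.99 and 15.25 with vehicle. IL-1β was lower in 2 pairs and higher in the third, with a fitted change of -0.38 (95% interval -0.81 to 0.05). In the trend-removed values it was lower in 3 of 3 pairs, by 0.16, 0.60 and 0.17, for a change of -0.31 (adjusted p = 0.412 in limma).

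Hnrnpa2b1 was the member most altered by trend removal. As normalized it read 15.97, 16.66 and 16.24 with IL-1β and 15.84, 15.89 and 16.42 with vehicle in wild-type glia, a change of 0.24 (95% interval -0.19 to 0.66) in which the second culture had the largest pair difference, 0.77. With the trend removed the values were 16.11, 15.90 and 16.09 with IL-1β and 16.39, 16.18 and 16.74 with vehicle, so IL-1β was lower in 3 of 3 pairs and the groups did not overlap. That change was -0.40 (95% interval -0.70 to -0.10, adjusted p = 0.274). The trend-removed pair differences of Hnrnpa2b1 were -0.20 and -0.55 in IL-1R1-/- cultures, which lack the receptor, and -0.28, -0.28 and -0.65 in wild-type cultures, so for this probe, in this version only, all 5 cultures had the lower value with IL-1β. As normalized they were 0.02 and -0.14 in IL-1R1-/- cultures and 0.12, 0.77 and -0.18 in wild-type cultures. The other Hnrnpa2b1 probe, which had gaps, gave 0.51 and -0.08 in IL-1R1-/- cultures and -0.89 and -0.55 in wild-type cultures 1 and 3. In the trend-removed values it gave 0.32 and -0.11 in IL-1R1-/- cultures and -0.48 and -0.54 in the same wild-type cultures, so the probes did not share a direction in the first IL-1R1-/- culture. The Hnrnpa2b1 promoter printed above carried no NF-κB consensus match, a motif found in only 8.18% of all promoters. Whether the promoter bears on these values was not tested.

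Hnrnpdl and Hnrnpm had wild-type changes of 0.33 (95% interval -0.13 to 0.80) and 0.30 (95% interval -0.13 to 0.72). HNRNPDL is an AU-rich-element-binding hnRNP, and HNRNPM regulates alternative exons. Both were negative with the trend removed. Hnrnpa3 and Hnrnph1 lay at -0.03 and -0.05, and Hnrnpul2 at 0.21.

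**Figure D2:**
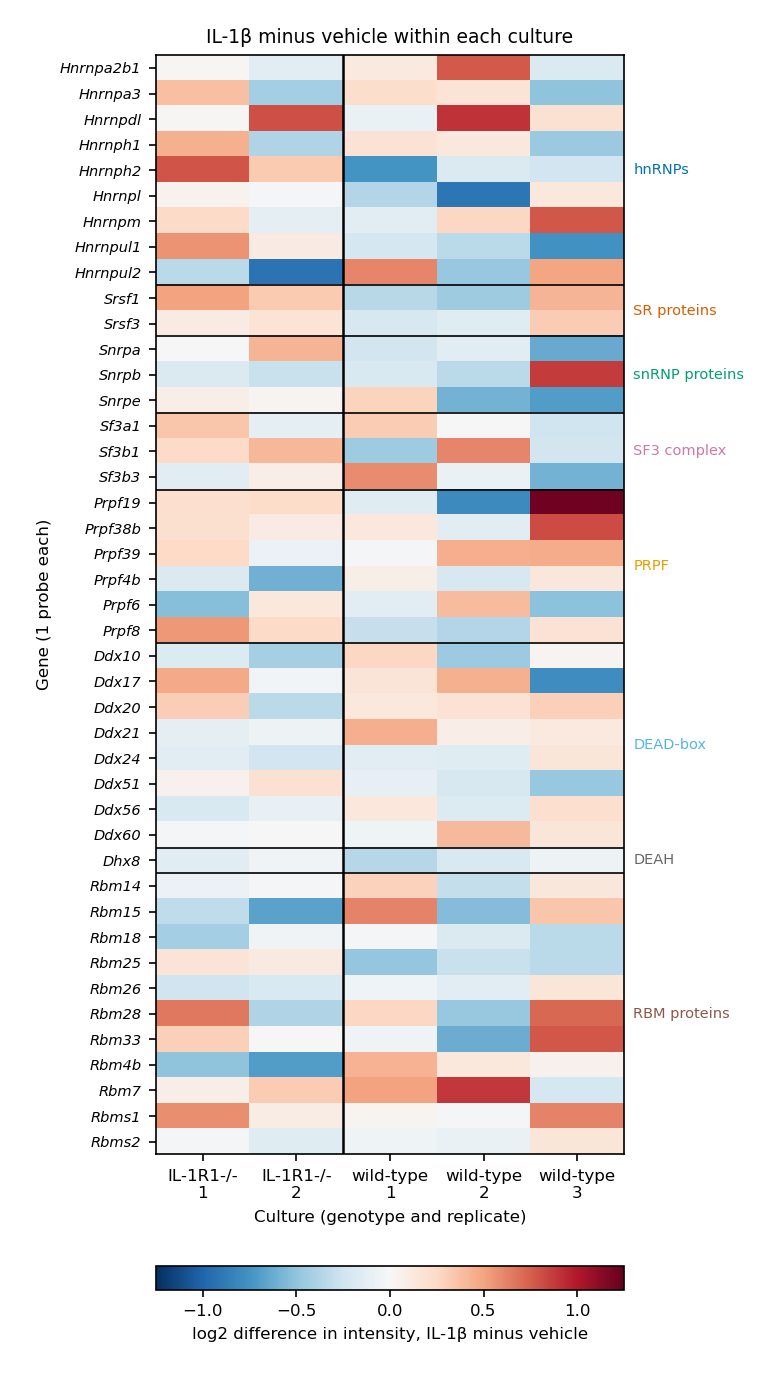
Log2 difference in intensity, IL-1β minus vehicle, in each of 2 IL-1R1-/- and 3 wild-type cultures (columns) for the 43 tested members (rows, grouped by family), as normalized, with red higher and blue lower in the IL-1β array. Few rows keep 1 colour across the 3 wild-type columns, and the darkest cell is Prpf19 in the third wild-type culture, at 1.22.

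Among proteins that mark exons, the SR genes Srsf1 and Srsf3 had changes near 0. Srsf1 encodes a founding SR protein and splicing enhancer, and its wild-type values were 14.93, 14.27 and 16.08 with IL-1β and 15.28, 14.71 and 15.65 with vehicle. The cultures differed more than the treatments did, and the change was -0.12 (95% interval -0.54 to 0.30). A second Srsf1 probe gave 0.35. Srsf3, the smallest SR protein, had a change of -0.01 (95% interval -0.39 to 0.37), with 14.86, 13.66 and 15.12 under IL-1β and 15.06, 13.81 and 14.81 under vehicle.

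The snRNP genes encode proteins bound to the small nuclear RNAs. Snrpa, a protein of the U1 snRNP, read 14.93, 14.63 and 14.67 with IL-1β and 15.15, 14.77 and 15.30 with vehicle in wild-type glia. IL-1β was lower in 3 of 3 Snrpa pairs, by 0.63 in the third and by less in the others, for a change of -0.33 (95% interval -0.72 to 0.06, adjusted p = 0.322). After trend removal the Snrpa change was 0.05. Snrpb and Snrpe, core proteins of the Sm ring, had changes of 0.11 and -0.34, and the intervals of both included 0. With the trend removed the Snrpe change was -0.08.

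Core spliceosome genes gave intervals around 0. Sf3b1 encodes the SF3B subunit that contacts the branch point, and its wild-type change was -0.02 (95% interval -0.47 to 0.42), with 14.96, 15.96 and 15.06 under IL-1β and 15.41, 15.35 and 15.28 under vehicle. Prpf8, the protein at the catalytic centre, had a change of -0.16 (95% interval -0.54 to 0.23) and read 14.66, 14.41 and 15.31 with IL-1β and 14.95, 14.78 and 15.13 with vehicle. Once the trend was removed Prpf8 was higher with IL-1β in both IL-1R1-/- pairs, at 0.31, and lower in 3 of 3 wild-type pairs, at -0.22. Sf3a1 and Sf3b3 lay at 0.02 and -0.03.

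The other PRPF genes included 2 of the 5 highest members. Prpf39, the counterpart of a yeast U1 snRNP protein, had a change of 0.30 (95% interval -0.08 to 0.69), and Prpf38b had 0.27 (95% interval -0.15 to 0.70), with -0.03 and 0.13 after trend removal. Prpf19, a ubiquitin ligase of the spliceosome, held the only pair difference of the 43 tested members beyond a 2-fold change, 1.22 in the third wild-type culture, where 3.94% of all probes lay beyond it. Its other wild-type pairs were negative, and its fitted change was 0.09.

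The wild-type changes of the 8 DEAD-box helicase genes ran from -0.26 for Ddx51 to 0.22 for Ddx21. DDX21 unwinds RNA in the nucleolus and couples ribosomal RNA transcription to processing. Ddx21 read 15.14, 14.66 and 14.90 with IL-1β and 14.68, 14.58 and 14.78 with vehicle in wild-type glia. IL-1β was higher in 3 of 3 pairs, by 0.45, 0.09 and 0.12, and the change was 0.22 (95% interval -0.15 to 0.59, adjusted p = 0.503). With the trend removed the Ddx21 change was 0.21, and its pair differences were 0.41, 0.23 and -0.03. Ddx60, an antiviral helicase induced by interferon, had a change of 0.17 (95% interval -0.20 to 0.54), and -0.16 with the trend removed. Dhx8, a DEAH-box helicase that releases mature mRNA from the spliceosome, was the only tested gene of its family, at -0.20 (95% interval -0.57 to 0.16).

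The 11 RNA-binding motif genes held the highest change. Rbm7, a subunit of the nuclear exosome targeting complex, read 14.84, 15.52 and 15.53 with IL-1β and 14.34, 14.64 and 15.75 with vehicle in wild-type glia. IL-1β was higher in 2 of 3 pairs, and the change of 0.39 (95% interval -0.06 to 0.84, adjusted p = 0.305) became -0.11 with the trend removed. Other Rbm7 probes gave -0.28 and 0.15.

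Rbm25, a regulator of splice site choice, read 14.12, 14.34 and 14.07 with IL-1β and 14.61, 14.61 and 14.41 with vehicle. All 3 IL-1β arrays lay below all 3 vehicle arrays, and the change was -0.37 (95% interval -0.73 to -0.01, adjusted p = 0.228). In the trend-removed values it was -0.05 and only 2 of 3 pairs were lower. The other Rbm25 probe, which had gaps, gave 0.08 and -0.17 in wild-type cultures 1 and 2, or -0.12 and -0.29 with the trend removed. Rbms1, a single-stranded nucleic acid binding protein, had 0.22, and 0.29 with the trend removed, where 3 of 3 pairs were higher. The second Rbms1 probe gave -0.18, and -0.02 with the trend removed.

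Across families, 10 of 43 members differed in the same direction in all 3 wild-type pairs, which is 3 higher (Ddx20, Ddx21, Rbm4b) and 7 lower (Ddx51, Dhx8, Hnrnph2, Hnrnpul1, Rbm18, Rbm25, Snrpa), and 40.1% of all probes did so. With the trend removed it was 8 of 43 against 30% of all probes, with Rbm18, Rbms1 and Rbms2 higher and Ddx17, Ddx60, Hnrnpa2b1, Hnrnpl and Prpf8 lower. Rbm18 alone was in both counts, lower in one and higher in the other. The median standard deviation over the 10 arrays was 0.31 for the members and 0.30 for all tested probes. Second probes, available for 12 genes, had the sign of the first in 6 of 15 cases in wild-type glia, and 9 of 15 with the trend removed. The largest change among them was 0.62 for Rbms2, whose first probe gave 0.004 (adjusted p = 0.051 for the second probe in limma), and 0.11 with the trend removed.

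**Figure D3:**
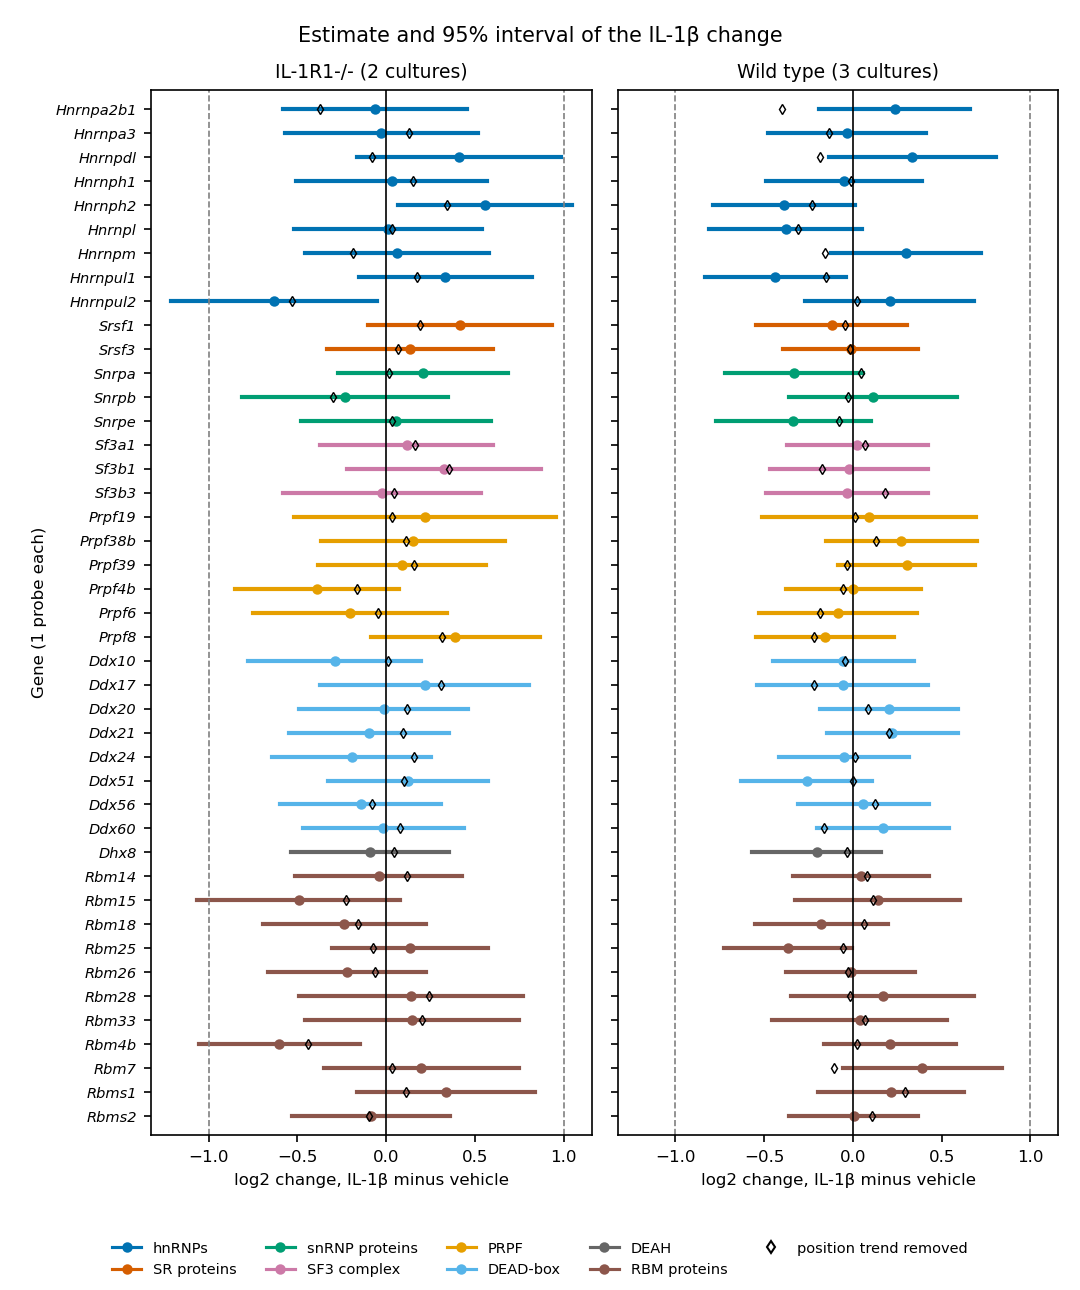
Fitted log2 change, IL-1β minus vehicle (filled points), with 95% intervals (bars) for the 43 members in IL-1R1-/- glia (left, 2 cultures) and wild-type glia (right, 3 cultures), coloured by family. Open diamonds give the change with the position trend removed, and dashed lines mark a 2-fold change. Inside the dashed lines lay 39 of 43 intervals in IL-1R1-/- glia and 43 of 43 in wild-type glia.

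The same treatment in IL-1R1-/- glia shows what the members did without the receptor. None of 43 passed, and neither did any other probe (0% of 5713), and an unadjusted p under 0.05 was reached by 3 members and 7.6% of all probes. The changes ran from -0.63 for Hnrnpul2 to 0.55 for Hnrnph2, with a median of 0.03. After trend removal 0 of 43 and 0% of all probes passed, and 3 members and 6.28% of all probes had an unadjusted p under 0.05.

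Rbm4b encodes a splicing regulator closely similar to Rbm4, and whether Rbm4 cDNA binds its probes was not tested. Its IL-1R1-/- values were 14.85 and 14.59 with IL-1β and 15.35 and 15.29 with vehicle. Both IL-1β arrays lay below both vehicle arrays (change -0.60, 95% interval -1.06 to -0.15, adjusted p = 0.601 in limma, n = 2 pairs), and the change was -0.44 with the trend removed. Other Rbm4b probes gave 0.23 and -0.39.

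Hnrnpul2, related to Hnrnpul1, read 15.90 and 15.24 with IL-1β and 16.24 and 16.15 with vehicle, again with no overlap (change -0.63, 95% interval -1.21 to -0.05, adjusted p = 0.620). Its second probe gave 0.18. Rbm15, an adaptor of RNA adenosine methylation, read 15.52 and 15.78 with IL-1β and 15.84 and 16.45 with vehicle, for a change of -0.49 (95% interval -1.06 to 0.08). The Hnrnpul2 and Rbm4b probes lie 2 places apart in the probe order, and the probe between them, for the vitamin C transporter gene Slc23a2, had a change of -0.46. The probe that follows Rbm4b, for the G protein subunit gene Gng10, had -0.57, or -0.40 with the trend removed, so all 4 consecutive probes lay between -0.46 and -0.63. Slc23a2 and Gng10 were chosen after their values were seen. The 12 tested probes of other genes within 8 places, both of these among them, had a median of 0.05. Whether the place of the probes bears on these values was not tested beyond the trend removal.

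These 3 genes depended on the scaling of the arrays. With each array centred on its median in place of quantile normalization, Rbm4b (-0.89), Hnrnpul2 (-1.04) and Rbm15 (-0.98) passed in IL-1R1-/- glia, at adjusted p from 0.0187 to 0.03, and 3.1% of all probes passed. Without normalization between arrays the same 3 passed, with 2.68% of all probes. At the positive end, Hnrnph2 read 15.68 and 15.89 with IL-1β and 14.90 and 15.57 with vehicle (change 0.55, 95% interval 0.06 to 1.04, adjusted p = 0.620), and its second probe gave 0.01. Srsf1 and Prpf8 had changes of 0.42 and 0.39 in IL-1R1-/- glia, with intervals that included 0.

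The difference between the genotypes' responses, IL-1R1-/- change minus wild-type change, addresses dependence on the receptor. It passed for 0 of 43 members and 0.158% of all probes, and 4 members and 14.1% of all probes had an unadjusted p under 0.05. Hnrnph2 had the smallest p, with pair differences of 0.79 and 0.32 in IL-1R1-/- cultures and -0.75, -0.18 and -0.24 in wild-type cultures. Those differences did not overlap, and the contrast was 0.94 (95% interval 0.31 to 1.58, adjusted p = 0.195). It was 0.58 with the trend removed. The second Hnrnph2 probe gave -0.001 as normalized and 0.25 with the trend removed.

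Rbm4b had a contrast of -0.81 (95% interval -1.40 to -0.22, adjusted p = 0.226), with -0.50 and -0.70 in IL-1R1-/- pairs and 0.44, 0.13 and 0.06 in wild-type pairs. Hnrnpul1 had 0.57 and 0.10 in IL-1R1-/- pairs and -0.22, -0.34 and -0.76 in wild-type pairs, so the order of the treatments was opposite in the genotypes. Its contrast was 0.77 (95% interval 0.15 to 1.40), and that of Hnrnpul2 was -0.84 (95% interval -1.59 to -0.09). After trend removal the contrasts were -0.46 for Rbm4b, 0.33 for Hnrnpul1 and -0.55 for Hnrnpul2. As normalized, other probes of these genes gave 0.41 and -0.16 for Rbm4b, 0.04 and 0.20 for Hnrnpul1, and 0.03 for Hnrnpul2, all of smaller size than the first probe's. Prpf8 and Rbm15 had 0.55 and -0.63, with intervals that included 0. The contrast's interval stayed within a 2-fold difference for 28 of 43 members, so for 15 a difference of that size was not excluded by the interval. Once the trend was removed the contrast passed for 0 of 43 members and 0.158% of all probes, 4 members and 8.07% of all probes had an unadjusted p under 0.05, and 39 of 43 intervals lay within a 2-fold difference. Prpf8 then had the smallest p, with 0.53 (95% interval 0.12 to 0.95, adjusted p = 0.516).

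**Figure D4:**
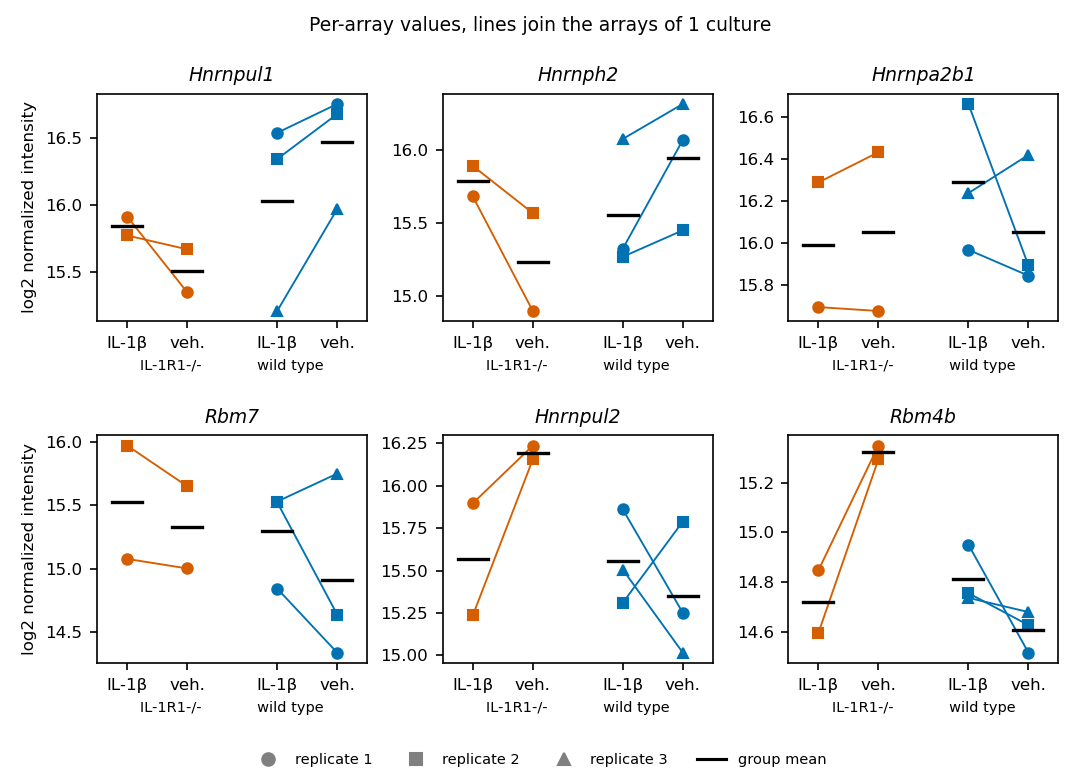
Log2 normalized intensity of 6 members on each of the 10 arrays, with IL-1β left of vehicle and IL-1R1-/- (orange, 2 cultures) left of wild type (blue, 3 cultures); lines join the arrays of 1 culture and black bars are group means. Rbm4b and Hnrnpul2 had their highest values in the IL-1R1-/- vehicle arrays, and the lines of Hnrnpul1 and Hnrnph2 slope opposite ways in the genotypes.

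The genotypes were also set against each other within a treatment, where genotype, array brightness and culture cannot be told apart. In vehicle glia 0 of 43 members differed at an adjusted p of 0.05, with 0.0175% of all probes called, and 7 members and 8.56% of all probes had an unadjusted p under 0.05. In the trend-removed values the counts were 0 of 43 with 0% of all probes, and 4 members with 7.74% of all probes. The difference, IL-1R1-/- minus wild type, ran from -0.96 for Hnrnpul1 to 0.84 for Hnrnpul2.

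Rbm4b vehicle values were 15.35 and 15.29 in IL-1R1-/- glia and 14.51, 14.63 and 14.68 in wild-type glia. The groups did not overlap, and the difference was 0.72 (95% interval 0.26 to 1.17, adjusted p = 0.282 in limma, n = 2 and 3). Hnrnpul1 read 15.35 and 15.67 in IL-1R1-/- vehicle glia and 16.75, 16.68 and 15.97 in wild-type vehicle glia, without overlap (difference -0.96, 95% interval -1.68 to -0.23, adjusted p = 0.382). Other Hnrnpul1 probes gave -0.03 and 0.10, and other Rbm4b probes -0.22 and -0.05, all nearer 0.

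Hnrnpm had 15.42 and 15.38 in IL-1R1-/- vehicle glia and 14.78, 14.92 and 14.26 in wild-type vehicle glia, a difference of 0.75 (95% interval 0.16 to 1.33, adjusted p = 0.391). Rbm25 and Hnrnph2 had differences of -0.50 and -0.71, and Hnrnpul2 0.84. Trend removal moved the Rbm25 difference towards 0 by 0.33, the largest shift among the members. Second probes of Hnrnph2 and Hnrnpul2 gave -0.20 and -0.08. With the trend removed Hnrnph2 had -0.48 and -0.41 on its first and second probes, and Hnrnpul2 had 0.68 and 0.07. With the arrays centred on their medians Rbm4b passed in vehicle glia (0.99, adjusted p = 0.0456), as did 1.79% of all probes. The vehicle arrays enter both this comparison and the responses to IL-1β, so a high vehicle value moves both, in opposite directions.

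In IL-1β-treated glia 0 of 43 members differed between genotypes at the adjusted threshold, against 0.07% of all probes, or 0.105% with the trend removed. No member had an unadjusted p under 0.05, against 4.97% of all probes, or 5.55% with the trend removed. The differences, IL-1R1-/- minus wild type, ran from -0.45 for Hnrnph1 to 0.51 for Hnrnpm. Of the genes with the smallest p, Hnrnpm (0.51), Prpf8 (0.48) and Snrpa (0.32) were positive, and Ddx21 (-0.40), Prpf4b (-0.41) and Prpf6 (-0.42) were negative. The intervals lay within a 2-fold difference for 33 of 43 members.

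The 15 members without a complete probe had at least 1 missing array pair. They include Rbm3, a cold-inducible RNA-binding protein, the splicing regulator Rbmx and Srsf11. Their 55 available pair differences ran from -1.51 to 1.32, and 8 of these lay beyond a 2-fold change. All 8 came from wild-type cultures 2 and 3, where 4.62% and 3.94% of all complete probes lay beyond it. The share over probes with gaps was not calculated. Where probes with gaps were kept, 8 of 58 members passed in wild-type glia, against 11.2% of all 8702 probes. With the trend removed as well, 0 of 58 did, against 1.21% of all probes.

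Prpf3, a protein of the tri-snRNP, was the only one of the 8 with all 3 wild-type pairs. Its pair differences were -0.25 in the single IL-1R1-/- pair and 0.62, 0.78 and 1.12 in wild-type glia (wild-type change 0.84, 95% interval 0.44 to 1.24, adjusted p = 0.0277 in limma). After trend removal the Prpf3 change was 0.31 (adjusted p = 0.432). Rbm18 passed at 0.95 through a probe with 2 wild-type pairs, whereas its complete probe gave -0.18, and Sf3b6, an SF3B subunit, passed at -0.84 with 2 pairs. Dhx38 (1.32), Rbm41 (1.21), Rbm3 (-1.11), Snrpa1 (-1.23) and Srsf11 (-1.51) each rested on 1 wild-type pair. For these 5 of the 8 the spread in the test came from other cultures and other probes, so they are values of single pairs and not replicated results.

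Other genes of the splicing machinery outside the name rule were counted from a list of 67 spliceosome and assembly genes. Of the 18 measured, 3 rose and 0 fell in wild-type glia, with a median change of 0.01, against 6.18% of all probes called. These were the SR protein kinase Clk3 (0.86, adjusted p = 0.0192), Snrnp27 (0.69, adjusted p = 0.0359) and Isy1 (0.65, adjusted p = 0.0479). Once the trend was removed none of the 18 passed, and those 3 had changes of 0.32, 0.08 and 0.32. Clk2 and Lsm6 had the smallest p on the negative side, at -0.58 and -0.41.

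Of 55 further splicing regulators 18 were measured and none passed in wild-type glia, against 6.18% of all probes, with a median of -0.11. Celf1, a regulator of exon choice and mRNA decay, had 0.67 (adjusted p = 0.0524) and 0.15 with the trend removed. Rbfox2 had 0.42, and Pcbp4 and Nova2 had -0.38 and -0.33.

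Ddx60 belongs to the interferon-inducible genes, and of a list of 26 RNA sensing and interferon genes 8 were measured. Gbp7 (1.48), Gbp3 (1.62), Gbp9 (1.13) and Usp18 (0.89) rose in wild-type glia, and 3 of them passed with the trend removed. Of all probes 6.18% passed, or 0.403% with the trend removed. Irf9 and Oasl2 had -0.16 and -0.06, next to 0.17 for Ddx60.

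Cell type markers moved with IL-1β beside these results. Of 4 measured astrocyte markers Id4 (-1.60, adjusted p = 0.0008) and Glul (-0.84, adjusted p = 0.0291) fell in wild-type glia, and Id4 alone passed with the trend removed. Sox9 and Slc1a2, the other measured markers, had -0.20 and 0.10, or -0.63 and 0.14 with the trend removed, and did not pass. The summed astrocyte level, as log2, was 16.68 to 17.30 with IL-1β and 16.87 to 17.33 with vehicle in IL-1R1-/- arrays. In wild-type arrays it was 16.64 to 16.82 with IL-1β and 17.50 to 17.59 with vehicle, without overlap. Of 5 endothelial and mural markers 1 rose, and 0 with the trend removed. None of 5 microglial, 3 oligodendrocyte, 2 neuronal and 2 fibroblast markers passed in limma, while 1, 1, 0 and 1 had an unadjusted p under 0.05. Over all probes 6.18% passed, or 0.403% with the trend removed, and 21.1% had an unadjusted p under 0.05 as normalized. Pdgfra stood in both the oligodendrocyte and the fibroblast list. The part of cell composition in the members' values was not tested.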

How the data were processed

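The authors deposited linear array intensities for 12 arrays of 8734 probes. Per the labels' protocols, TRIzol-extracted, DNase-treated RNA gave cDNA labelled with radioactive phosphorus. Any correction or scaling before deposit was not given in the sources used here. Genes were named from the platform annotation, and 81 of 81 member probes kept their symbol in a current table (GRCm38.p6). The members and all gene lists were chosen with earlier results of these data known.

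Intensities were taken to log2 and quantile-normalized with limma 3.58.1 (R 4.3.3). The model for each probe (lmFit, eBayes) blocked on culture and held a separate IL-1β term for each genotype. Genotypes were compared through the 4 group means, culture being a random block (duplicateCorrelation, statmod 1.5.0, correlation 0.388, or 0.452 with the trend removed). Tests were two-sided, with Benjamini-Hochberg adjustment over 5713 probes complete on 10 arrays and a threshold of 0.05. The pairing is stated in the design text, and deviations of paired arrays correlated at 0.562 (IL-1R1-/-, 1 value) and at 0.468, 0.582 and 0.261 (wild type). The position trend, each array's deviation from the mean of all arrays, was fitted by loess (span 0.2, degree 1) on the rows and columns of plates in a layout of 16 by 24 wells inferred from the probe order, and subtracted. For the responses to IL-1β and their difference, the p-values rest on how the pair difference varied between cultures. For the genotype comparisons they rest on the spread of arrays within groups, with culture as a random block. In both, eBayes drew each probe's spread towards that of all probes.

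Per comparison the 5 members (wild-type response) or 3 members (others) per direction with the smallest p were named, because none passed, plus members fixed by role. The fit of the wild-type response was checked on simulated data. There 0% of changes of log2 0.5, 52% of log2 1 and 98% of log2 2 passed the threshold. The simulated noise was independent between probes, unlike that of the arrays, and 121 simulated probes passed against 353 real ones. These shares therefore hold for the simulated setting only, since Isy1 passed at 0.65 in the real data. In that setting, changes the size of the members' wild-type estimates would rarely have passed. Alternatives were other normalizations, no block, other arrays or probes, a filter on dim probes and leaving out each replicate. The alternative with both gaps kept and the trend removed was added after seeing the data.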

Additional observations from a re-analysis of the deposited data

How the results depend on the processing

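The count of members past the threshold was 0 of 43 in all 5 comparisons, and it was also 0 with no replicate block, with the position trend removed (with or without the block), with all 12 columns, with the copied columns and the pairs of their sources left out, and with the dimmest 25% of the probes left out. In wild-type glia it was 8 of 58 with probes with gaps kept, where 11.2% of all probes passed and 5 of the 8 rested on 1 pair, and 1 of 45 (Prpf3) with the wild-type arrays fitted alone, where 3.57% passed. It ran from 0 to 2 when 1 replicate was left out, being 2 of 48 (Rbm18 and Sf3b6) without wild-type replicate 3, against 5.2% of all probes, and 1 of 45 (Prpf3) without IL-1R1-/- replicate 1, against 3.81%. All of these came from probes with gaps on other arrays. In IL-1R1-/- glia it was 3 of 43 without normalization between arrays and 3 of 43 with median centring, against 2.68% and 3.1% of all probes. With those arrays fitted alone it was 5 of 56 (Ddx24, Hnrnpul2, Prpf31, Rbm4b and Snrpa1, of which 1 was higher and 4 lower), against 4.25% of 7904 probes. For the difference in response it was 3 of 43 without normalization and 3 of 43 with median centring, against 4.2% and 4.62% of all probes, and for vehicle glia 1 of 43 with median centring, against 1.79%. The count of all probes called in IL-1R1-/- glia was 0 after quantile normalization, 177 with median centring and 153 without normalization. In wild-type glia it was 353, or 23 with the trend removed. Why the scaling moved these counts was not tested. Of 629 values of named genes under the alternatives, 15 passed and 39 had another sign, none of them a called one. Without normalization the median of all probes between genotypes shifted to 1.80 in vehicle glia and 1.78 in IL-1β glia, so single genes are to be read against that shift. Within-culture correlation could not be estimated on 6 arrays, where the value from 10 arrays was used. With 2 IL-1R1-/- cultures, and signal over background unknown, small changes of single members were not resolved.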

Other observations

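The probe neighbourhood of another pair of members was read in the same way. Ddx21 and Rbm15 lie 3 places apart in the probe order, with changes of -0.10 and -0.49 in IL-1R1-/- glia, and 13 other tested probes within 8 places had a median of -0.15, with 10 of them below 0. With the position trend removed the median of those probes was -0.05 and Rbm15 had -0.22. The median pair difference of the members was 0.06 and -0.04 in the IL-1R1-/- cultures and -0.01, -0.15 and 0.14 in the wild-type cultures. With the trend removed the wild-type medians were -0.002, -0.01 and -0.03.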
